A study of Homo sapiens with 33 samples.

Results

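A set of 7 genes of epithelial cells was followed here over all their spots on a membrane array: VIL1, KRT8P12, KRTCAP3, CTTN, AFDN, ELF3 and SPINT2. The rule took every spot whose only gene symbol in the platform annotation was 1 of these names, which gave 14 of the 34560 spots. SPINT2 had 4 spots, AFDN had 3, ELF3 and CTTN had 2 each, and VIL1, KRT8P12 and KRTCAP3 had 1 each. The members were proposed with measured values of these arrays in view, chiefly the difference between unstimulated CaCo-2 and unstimulated THP-1 cells and, for AFDN, the difference between the lines in the response to TNF. Those values are therefore described without a test.

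A simple epithelium is polarised. Its apical face carries microvilli whose actin cores are bundled by villin, keratin filaments of type 8 and 18 span its cytoplasm, and junctions anchored to cortical actin hold neighbouring cells together. Villin is a classical marker of the enterocyte brush border, and ELF3 is an epithelium-restricted transcription factor of the ETS family. CaCo-2 is a colon carcinoma line known for acquiring enterocyte features after long confluence, whereas THP-1 is a monocytic leukaemia line that grows in suspension.

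The series held 4 groups: THP-1 cells without stimulation, THP-1 cells given TNF-alpha at 5 ng/ml for 60 min, CaCo-2 cells without stimulation, and CaCo-2 cells given TNF-alpha at the same dose and time. TNF-alpha (TNF) is an inflammatory cytokine. The lines were grown in different media, so line and medium cannot be told apart, and CaCo-2 cells came from confluent cultures that were split and reseeded before stimulation, per the labels' protocols. Radioactively labelled cDNA was hybridised to membranes of cDNA spots, and the values are spot intensities on a linear scale. The 33 deposited columns held 22 arrays that could be used once each: 5 of unstimulated and 7 of TNF-treated THP-1 cells, and 5 each of unstimulated and of TNF-treated CaCo-2 cells. The labels do not tie arrays to cultures. A p-value therefore measures spread among the arrays alone, which may be technical, and precision is limited by how few they are. In RNA from whole cultures, fewer cells of a type and less RNA per cell cannot be told apart.

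Between 32% and 39.6% of the spots on each array stood at exactly 0. In the main fits a 0 was read as no value, not as a low level, and each spot is given with its count of arrays above 0. Some arrays also carried a second, summed column built from the same 3 component readings. Of 25 member readings at 0 that had such a partner, 12 had a partner above 0. On the CaCo-2 side, 5 arrays stood apart in sets that cut across the treatment: deviations from the group means correlated at r = 0.67 between control 1 and TNF 1, at 0.66 between control 1 and TNF 2, and at 0.73 between control 5 and TNF 6. Differences at the member spots are therefore also given without these 5 arrays, which leaves 3 control and 2 TNF arrays of that line. This fit was chosen after the data were seen. The marker check separated the lines only in part. LAPTM5, a lysosomal membrane protein of leukocytes, was above 0 on 12 of 12 THP-1 and 1 of 10 CaCo-2 arrays. The monocyte markers LST1 and CYBB were also at 0 on most CaCo-2 arrays. PTPRC, TYROBP and CSF1R were above 0 on most arrays of both lines. CD4 and AIF1 were above 0 on every array, with medians of 1.183 and 0.5 in THP-1 and 1.395 and 0.506 in CaCo-2. The summed intensity of the 8 monocyte markers ranged from 2.97 to 3.81 and from 3.39 to 3.596 over the control and the TNF arrays of THP-1, and from 2.26 to 3.06 and 2.32 to 3.41 over those of CaCo-2. A reading at 0 added nothing to these sums, so they also reflect how many of the markers were above 0. Of 11 epithelial markers, VIL1 and CDH17 had a spot of their own. CDH17, an intestinal cadherin, had a median intensity of 0.528 in THP-1 and 0.510 in CaCo-2 arrays, so its spot did not set the lines apart.

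**Figure D1:**
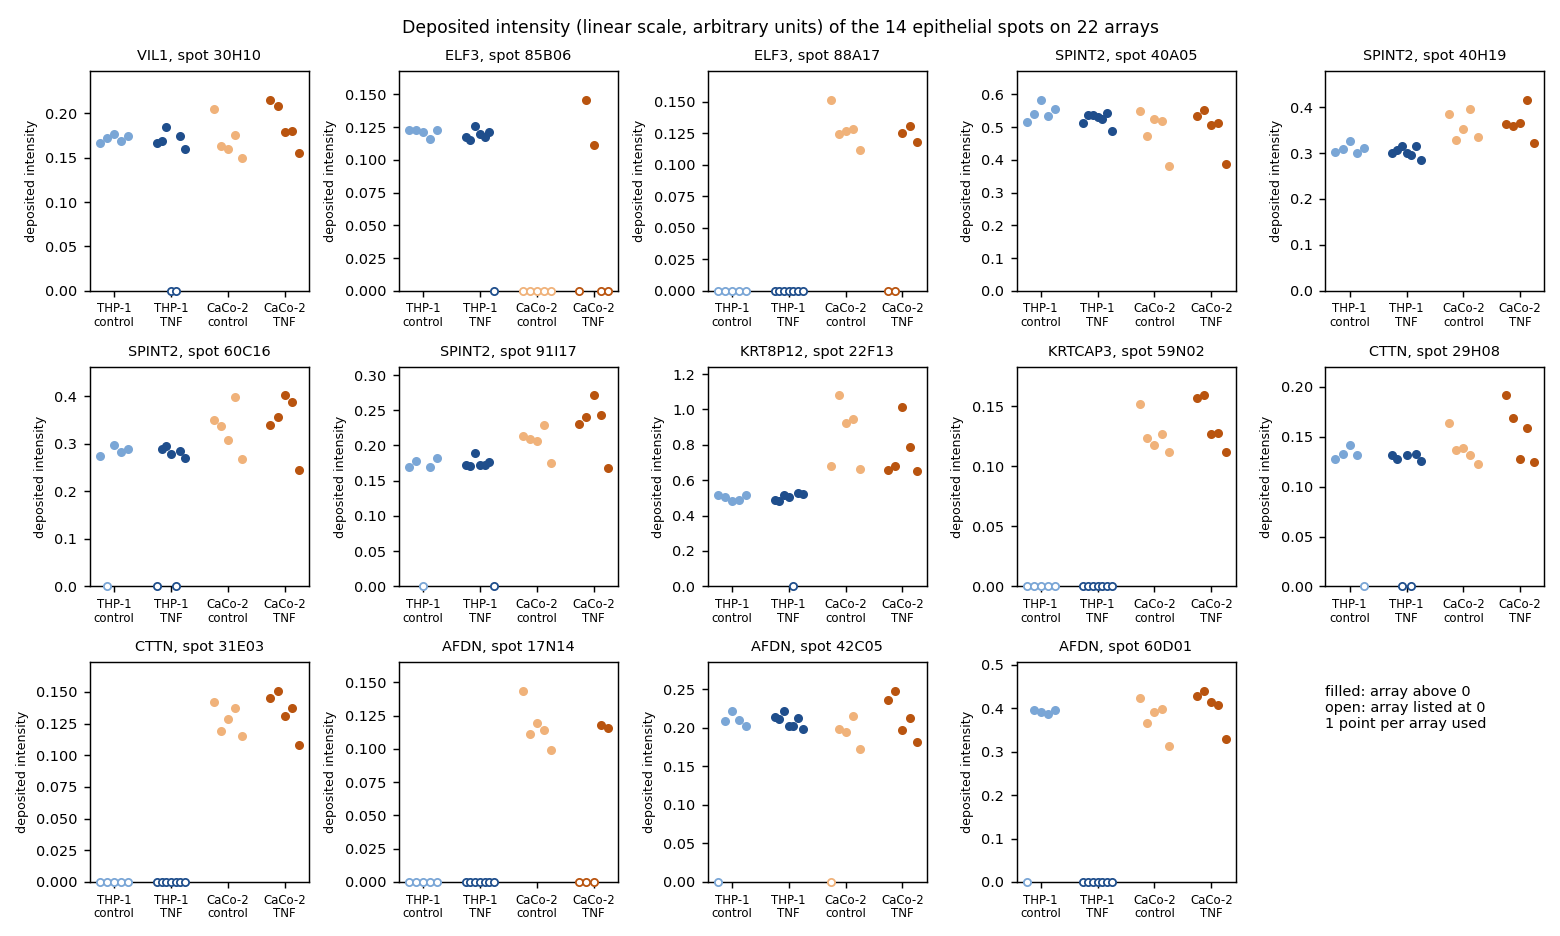
Deposited intensity (linear scale, arbitrary units) of each of the 14 spots on the 22 arrays, grouped by line and treatment, with 1 point per array and open points for arrays at exactly 0. KRT8P12 is the spot with the widest gap, with every CaCo-2 array between 0.652 and 1.08 and the 11 THP-1 arrays above 0 between 0.480 and 0.525.

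**Figure D2:**
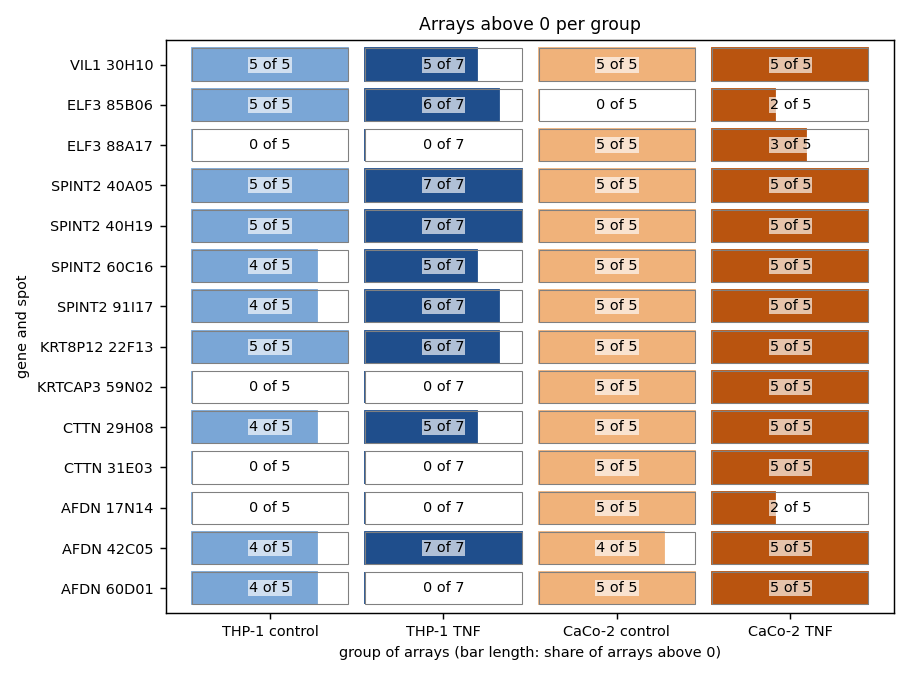
Number of arrays above 0 for each spot (rows) in each of the 4 groups (columns), where the coloured length of a bar is the share of arrays above 0. KRTCAP3 and CTTN spot 31E03 were above 0 on all 10 CaCo-2 arrays and at 0 on all 12 THP-1 arrays.

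VIL1 encodes villin, which bundles and severs actin filaments in microvilli. Its spot 30H10 read 0.166, 0.172, 0.177, 0.169 and 0.174 on the 5 THP-1 control arrays. On THP-1 TNF arrays it was above 0 on 5 of 7, from 0.160 over a median of 0.169 to 0.184. In CaCo-2, control arrays read 0.205, 0.163, 0.160, 0.176 and 0.150, and CaCo-2 TNF arrays 0.216, 0.208, 0.179, 0.180 and 0.155. The raw intensities of the lines overlapped. The spot of the brush border gene read nearly the same in the monocytic line as in the epithelial one. Its readings were low in both. On 9 THP-1 arrays they were 1.53 to 1.58 times the lowest value above 0 on the same array. On the 10 CaCo-2 arrays they were 1.53 to 1.73 times that value. Whether readings this low reflect villin transcript was not tested.

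The comparison of the lines on TNF arrays is the one that the control difference did not use, and it is tested here with limma after quantile normalization, with adjustment over all 26087 spots that had at least 2 values above 0 in each group. Which arrays were in view when the genes were proposed is not recorded, so this comparison may not be fully independent of the choice. At an adjusted p under 0.05, 378 spots, or 1.45%, were called, 1.2% as higher and 0.249% as lower in CaCo-2. The AFDN spots are described without a test. Of the 8 testable spots of the other genes, 4 were called, all as higher in CaCo-2: VIL1, KRT8P12 and 2 of SPINT2. The other 4 were SPINT2 spots 40A05 and 60C16, ELF3 spot 85B06 and CTTN spot 29H08.

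For VIL1 the normalized log2 level was -2.44 ± 0.04 (SD, n = 5) in CaCo-2 TNF and -2.57 ± 0.04 (SD, n = 5) in THP-1 TNF arrays. The difference of 0.13 ± 0.03 (SE; 95% interval 0.07 to 0.19) had an adjusted p of 0.0352 in limma. It was 0.11 without the 5 CaCo-2 arrays that stood apart, with an adjusted p of 0.0986 in limma. The call also ended on leaving out 8 of the 12 arrays 1 at a time, where the adjusted p in limma reached 0.0967. Without normalization the difference on TNF arrays was 0.12, with an adjusted p of 0.946 in limma. On control arrays the difference was 0.08, and 0.06 without control 1 and 5. It was -0.02 there without normalization, 0.03 with each 0 replaced by its summed partner, 0.17 with the mean of both columns and 0.19 with all columns as separate arrays, so its direction rests on the normalization.

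KRT8P12 is annotated as a processed copy of the keratin 8 gene on chromosome 3. Keratin 8 is the type II keratin of simple epithelia, and a cDNA spot cannot tell a transcript of the parent gene from one of its copy. Spot 22F13 read 0.519, 0.507, 0.482, 0.487 and 0.518 on THP-1 control arrays. It was above 0 on 6 of 7 THP-1 TNF arrays, from 0.480 over a median of 0.511 to 0.525, and at 0 on THP-1 TNF 5. CaCo-2 control arrays read 0.680, 1.08, 0.924, 0.947 and 0.661. CaCo-2 TNF arrays read 0.658, 0.678, 1.01, 0.789 and 0.652. All CaCo-2 arrays lay above all THP-1 arrays with a value. Such a lack of overlap with CaCo-2 higher was seen at 0.404% of the 24758 spots testable on control arrays and at 2.88% of those testable on TNF arrays. The reverse, CaCo-2 clear below THP-1, held at 10.4% and 2.45% of these spots and at 0 member spots.

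Within CaCo-2 the deposited KRT8P12 intensities fell into 2 levels that did not follow TNF. The 5 arrays that stood apart, control 1 and 5 and TNF 1, 2 and 6, read from 0.652 to 0.680, and the other 5 read from 0.789 to 1.08. After normalization the sets overlapped on the log2 scale. TNF 5 of the higher set was at -0.396, below control 5 at -0.376 and TNF 6 at -0.365. The normalized log2 level was -0.42 ± 0.23 (SD, n = 5) in CaCo-2 TNF and -1.0 ± 0.04 (SD, n = 6) in THP-1 TNF arrays. Their difference of 0.59 ± 0.08 (SE; 95% interval 0.41 to 0.76) was 1.5-fold and had an adjusted p of 0.00511 in limma. Only 0.023% of the tested spots had a larger difference in favour of CaCo-2. Without the 5 arrays the difference was 0.78, with an adjusted p of 0.00055 in limma. Those arrays held the lowest deposited KRT8P12 intensities of CaCo-2, so a larger difference without them adds no support. The fit keeps 2 CaCo-2 TNF arrays. The difference over all arrays was called in each of the 12 fits that left out 1 array. With each 0 raised to the lowest value of its array, which brings in the THP-1 reading at 0, the difference was 0.91 and the adjusted p in limma was 0.345. On control arrays the difference was 0.79, and 0.95 without control 1 and 5. Over all spots, limma called 20 of 24758, or 0.0808%, on control arrays (0.0525% higher and 0.0283% lower in CaCo-2), and no member is counted there, since this comparison was in view when the genes were chosen.

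KRTCAP3, keratinocyte associated protein 3, is a small predicted membrane protein, and its spot was 1 of the 2 that gave a clean presence pattern. Spot 59N02 read 0.152, 0.123, 0.118, 0.127 and 0.112 on CaCo-2 control arrays. After TNF it read 0.157, 0.159, 0.127, 0.128 and 0.112. It was listed at 0 on all 5 THP-1 control and all 7 THP-1 TNF arrays.

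CTTN encodes cortactin, which binds and stabilises branched actin at the cell cortex. Its spot 31E03 behaved like KRTCAP3, with 0.142, 0.119, 0.128, 0.137 and 0.115 on CaCo-2 control and 0.146, 0.151, 0.131, 0.138 and 0.108 on CaCo-2 TNF arrays, and 0 on all 12 THP-1 arrays. Above 0 on every CaCo-2 and at 0 on every THP-1 array was a pattern of 6 of 32734 spots, or 0.0183%. On control arrays alone the pattern belongs to what was in view when the genes were chosen. Of 79 spots that had it there, 6, or 7.59%, had it on the TNF arrays too, KRTCAP3 and CTTN 31E03 among them.

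Both spots were dim. KRTCAP3 read between 1.13 and 1.23 times, and CTTN 31E03 between 1.08 and 1.32 times, the lowest value above 0 on the same array. The 0 in THP-1 was not uniform either. For THP-1 control 1, the summed partner column held 0.118 at KRTCAP3 and 0.114 at CTTN 31E03, about the size of 1 CaCo-2 reading, while the partners of the 2 other THP-1 arrays with one stood at 0 for both spots. No fold is given against a group at 0, and a fit with 0 as missing cannot test these spots. With 0 raised to the lowest value of the array, the adjusted p in limma was 1.52e-06 for KRTCAP3 and 5.79e-05 for CTTN 31E03, but a group at a fixed value has no spread of its own and such p-values are too small.

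The other spot of CTTN did not share the pattern. Spot 29H08 was above 0 on 4 of 5 THP-1 control arrays at 0.128, 0.133, 0.142 and 0.132, and on 5 of 7 THP-1 TNF arrays, from 0.126 over a median of 0.131 to 0.133. Control arrays of CaCo-2 read 0.164, 0.137, 0.139, 0.132 and 0.122, and CaCo-2 TNF arrays 0.192, 0.169, 0.128, 0.159 and 0.125. The intensities overlapped. The log2 difference between the lines on TNF arrays was 0.18 ± 0.05 (SE; 95% interval 0.07 to 0.30) with an adjusted p of 0.112 in limma, and 0.15 without the 5 arrays. The sign was that of 31E03, but over the 10 CaCo-2 arrays the 2 spots did not track each other (r = -0.23).

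AFDN encodes afadin, which links nectins at adherens junctions to the actin cytoskeleton. Its 3 spots gave 3 different patterns. Spot 42C05 read much the same in both lines: 0.209, 0.222, 0.211 and 0.203 on the 4 THP-1 control arrays above 0, 0.198 over a median of 0.212 to 0.222 on all 7 THP-1 TNF arrays, 0.199, 0.195, 0.216 and 0.172 on 4 CaCo-2 control arrays, and 0.237, 0.248, 0.198, 0.213 and 0.182 on CaCo-2 TNF arrays. The log2 difference between the lines was 0.07 on control and 0.06 on TNF arrays, and 0.07 and 0.02 without the 5 arrays. On control arrays it turned to -0.12 without normalization and to -0.01 with 0 replaced by the summed partner. The readings at 0 on THP-1 control 1 and CaCo-2 control 1 had summed partners of 0.192 and 0.207.

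Spot 60D01 of AFDN was brighter and behaved otherwise. It read 0.396, 0.392, 0.387 and 0.397 on 4 of 5 THP-1 control arrays and 0 on all 7 THP-1 TNF arrays. On CaCo-2 control arrays it read 0.424, 0.367, 0.392, 0.397 and 0.314, and on CaCo-2 TNF arrays 0.429, 0.440, 0.415, 0.407 and 0.330. At 0 on every THP-1 TNF array and above 0 on at least 4 THP-1 control arrays was a pattern of 25 of 33569 spots, or 0.0745%. The pattern restates readings that were in view when AFDN was chosen, so its share is a description and no test. One THP-1 TNF array, TNF 6, had a summed partner, and it held 0.378, the size of 1 unstimulated reading. The 0 on that array thus stood beside 1 component at the control level, and the other 6 THP-1 TNF arrays have no partner column.

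Spot 17N14 of AFDN had 0 throughout THP-1. It read 0.144, 0.111, 0.119, 0.114 and 0.0990 on CaCo-2 control arrays and was above 0 on 2 of 5 CaCo-2 TNF arrays, at 0.118 and 0.116. Above 0 on every CaCo-2 control array and on at most 2 CaCo-2 TNF arrays were 350 of 33653 spots, or 1.04%. This share, too, is for a pattern that restates the spot's own readings and is no test. Without the arrays that stood apart it was above 0 on 3 of 3 control and 1 of 2 TNF arrays of CaCo-2. The reading at 0 on CaCo-2 TNF 1 had a summed partner of 0.122. Among TNF arrays, readings at 0 thus lay in THP-1 alone for 60D01, in both lines for 17N14 and in neither for 42C05.

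One CaCo-2 column pair was left out of every group, since its single column is labelled TNF and its summed column control. In that single column KRT8P12 read 0.966, KRTCAP3 0.130, CTTN 31E03 0.136, ELF3 88A17 0.133 and AFDN 60D01 0.375. AFDN 17N14 stood at 0 there, with 0.115 in the summed column. The readings above 0 lay among those of the other CaCo-2 arrays, and KRT8P12 lay within the higher of its 2 levels of deposited intensity.

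ELF3 gave opposite patterns at its 2 spots. Spot 88A17 read 0.152, 0.124, 0.127, 0.128 and 0.112 on CaCo-2 control arrays and 0.125, 0.131 and 0.118 on 3 of 5 CaCo-2 TNF arrays. It stood at 0 throughout the 12 THP-1 arrays, as did KRTCAP3, CTTN 31E03 and AFDN 17N14, a state shared by 4.53% of 33569 spots. Its 2 CaCo-2 readings at 0 were TNF 1 and TNF 2, so without the arrays that stood apart it was above 0 on 3 of 3 control and 2 of 2 TNF arrays. Spot 85B06 read 0.123, 0.123, 0.121, 0.116 and 0.123 on THP-1 control arrays and was above 0 on 6 of 7 THP-1 TNF arrays, from 0.115 over a median of 0.119 to 0.126. It was at 0 on all 5 CaCo-2 control arrays and read 0.146 and 0.112 on 2 of 5 CaCo-2 TNF arrays. One spot of the gene was thus read in CaCo-2 and the other mainly in THP-1.

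The partner columns bear on both ELF3 spots. For 85B06, 4 of the 6 CaCo-2 readings at 0 with a partner had one above 0, at 0.122, 0.125, 0.0999 and 0.112. For 88A17, the summed column was 2.0 times the single one on all 4 CaCo-2 control arrays with a partner, where 3 equal components would give 3. The 3 THP-1 partners of 88A17 were at 0. Where 85B06 had values in both lines, on TNF arrays, the log2 difference was 0.00 ± 0.05 (SE; 95% interval -0.11 to 0.11), with an adjusted p of 0.997 in limma. Both spots were dim, at 1.06 to 1.27 times the lowest value above 0 on the array. This range leaves out THP-1 control 3, where the lowest value was 0.0378 and 85B06 read 0.121.

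Of the 7 genes, 3 matched the RefSeq promoter table of GRCh38.p14: ELF3, KRTCAP3 and AFDN. The sequence before their start sites is shown for that reason, as the 250 upstream bases 5′ to 3′ on the gene's strand. Each had a spot above 0 on every CaCo-2 control array and at 0 on every THP-1 array. So did CTTN, which had no match, and other spots of ELF3 and AFDN were above 0 in THP-1. Capitals mark CACCTG or its reverse complement CAGGTG, the E-box form that Snail and ZEB repressors of epithelial genes are known to bind.
ELF3, chr1:202010337-202010586, plus strand: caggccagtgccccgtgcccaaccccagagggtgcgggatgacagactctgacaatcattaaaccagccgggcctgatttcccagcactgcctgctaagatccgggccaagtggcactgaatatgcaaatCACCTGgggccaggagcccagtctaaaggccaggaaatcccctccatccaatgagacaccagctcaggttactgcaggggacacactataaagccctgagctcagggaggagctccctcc
KRTCAP3, chr2:27442131-27442380, plus strand: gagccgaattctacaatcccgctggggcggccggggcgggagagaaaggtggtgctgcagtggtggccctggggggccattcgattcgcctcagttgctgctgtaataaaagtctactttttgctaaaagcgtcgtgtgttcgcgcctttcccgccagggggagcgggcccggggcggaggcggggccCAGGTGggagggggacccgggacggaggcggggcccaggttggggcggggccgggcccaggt
AFDN, chr6:167827385-167827634, plus strand: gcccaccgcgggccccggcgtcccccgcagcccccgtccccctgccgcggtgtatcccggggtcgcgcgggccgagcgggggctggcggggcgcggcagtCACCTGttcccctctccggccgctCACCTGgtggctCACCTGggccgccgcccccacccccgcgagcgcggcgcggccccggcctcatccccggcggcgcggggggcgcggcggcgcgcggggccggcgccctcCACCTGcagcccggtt
The motif stood once before ELF3, once before KRTCAP3 and 4 times before AFDN, and 17.5% of the 27305 promoters in the table hold it on either strand in a window of the same length. TATAAA or TTTATA was found 1 time before ELF3 and not in the windows of KRTCAP3 and AFDN, against 11.1% of promoters. The ETS core GGAA or TTCC, which 92.8% of promoters hold, was found 2 times before ELF3 and 1 time before each of the others. The share of G and C was 58.4% for ELF3, 68.8% for KRTCAP3 and 84.8% for AFDN, with a median of 58% over the table. These matches describe the letters of the windows, and factor binding was not measured.

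SPINT2 encodes a Kunitz-type inhibitor of membrane-anchored serine proteases such as matriptase, made by many epithelia. Of its 4 spots, 3 read higher in CaCo-2 and the brightest did not. Spot 40H19 read 0.302, 0.308, 0.327, 0.301 and 0.312 on THP-1 control arrays and from 0.284 over a median of 0.3002 to 0.316 on the 7 THP-1 TNF arrays. CaCo-2 control arrays read 0.384, 0.329, 0.352, 0.396 and 0.336, and CaCo-2 TNF arrays 0.364, 0.359, 0.365, 0.416 and 0.322. The groups did not overlap on control or on TNF arrays. The normalized log2 level was -1.45 ± 0.15 (SD, n = 5) in CaCo-2 TNF and -1.75 ± 0.01 (SD, n = 7) in THP-1 TNF arrays. Their difference of 0.30 ± 0.05 (SE; 95% interval 0.20 to 0.40) had an adjusted p of 0.0142 in limma, and it was called in each of the 12 fits without 1 array. Without normalization it was 0.27 and no longer called, with an adjusted p of 0.212 in limma.

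Spot 91I17 of SPINT2 read 0.169, 0.179, 0.170 and 0.183 on 4 THP-1 control arrays and from 0.171 over a median of 0.173 to 0.189 on 6 of 7 THP-1 TNF arrays. The CaCo-2 control arrays read 0.213, 0.209, 0.206, 0.229 and 0.175, and CaCo-2 TNF arrays 0.231, 0.241, 0.271, 0.243 and 0.169. CaCo-2 control 5 and TNF 6, dim as whole arrays, were the low ones and overlapped with THP-1 in intensity. Between TNF arrays the log2 difference of 0.41 ± 0.06 (SE; 95% interval 0.27 to 0.55) had an adjusted p of 0.0142 in limma and was called in each of the 12 fits without 1 array. With 0 raised to the lowest value of the array the adjusted p in limma was 0.154, and without normalization it was 0.212.

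Spot 60C16 of SPINT2 read 0.276, 0.299, 0.284 and 0.289 on 4 THP-1 control arrays and from 0.271 over a median of 0.286 to 0.296 on 5 of 7 THP-1 TNF arrays. CaCo-2 control arrays read 0.350, 0.338, 0.309, 0.399 and 0.268, and CaCo-2 TNF arrays 0.340, 0.356, 0.402, 0.389 and 0.245. Again the intensities of CaCo-2 control 5 and TNF 6, dim as whole arrays, fell below the others. The log2 difference on TNF arrays of 0.30 ± 0.07 (SE; 95% interval 0.14 to 0.45) missed the threshold with an adjusted p of 0.0616 in limma. Without the 5 CaCo-2 arrays that stood apart it was 0.51, and limma gave an adjusted p of 8.14e-05. In that fit 40H19 was at 0.40 and 91I17 at 0.61, with adjusted p of 0.000494 and 0.000128 in limma. That fit holds 2 CaCo-2 TNF arrays and was chosen after the data were seen.

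The brightest SPINT2 spot, 40A05, read 0.515, 0.539, 0.583, 0.535 and 0.555 on THP-1 control and from 0.486 over a median of 0.529 to 0.541 on THP-1 TNF arrays. The control arrays of CaCo-2 read 0.549, 0.473, 0.525, 0.518 and 0.382, and CaCo-2 TNF arrays 0.535, 0.551, 0.506, 0.512 and 0.386. Its log2 difference of -0.06 ± 0.03 (SE; 95% interval -0.12 to 0.00) on TNF arrays had the opposite sign, with an adjusted p of 0.267 in limma, and it was -0.10 on control arrays. Without the 5 arrays these were -0.04 and -0.09. Over the arrays where both were above 0, normalized values of 60C16 and 91I17 followed each other (r = 0.95, 17 arrays), also within CaCo-2 (r = 0.87, 10 arrays). Spot 40A05 ran against 40H19 over all 22 arrays (r = -0.58) and within CaCo-2 (r = -0.52, 10 arrays), but with it within THP-1 (r = 0.58, 12 arrays). These coefficients are descriptions over arrays that share the line difference. SPINT2 thus split 3 spots against 1, and the spot sequences were not used here.

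**Figure D3:**
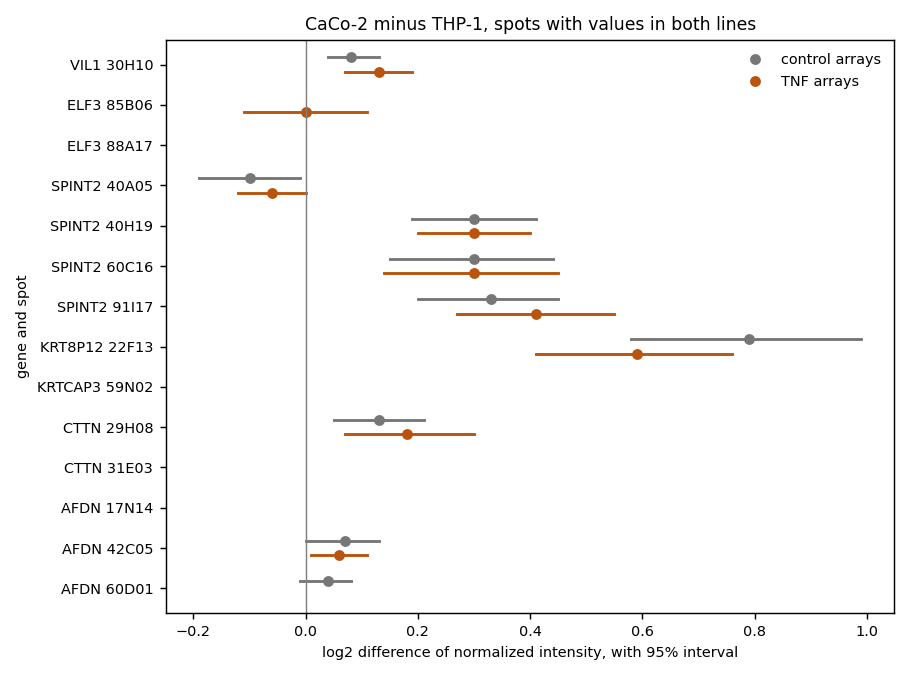
CaCo-2 minus THP-1 log2 difference of normalized intensity (x axis) for each spot (y axis), with 95% intervals, on control arrays and on TNF arrays. A spot with fewer than 2 values above 0 in a group has no point. Intervals on control arrays and those of AFDN are descriptions and not tests, since the genes were chosen with such values in view. KRT8P12 has the largest difference, 0.79 on control and 0.59 on TNF arrays, while SPINT2 spot 40A05 is the only plotted spot below 0 on both.

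The series title names TNF-stimulated CaCo-2 cells, so the comparison of TNF with control arrays addresses its question. No tested member spot passed after TNF in either line, and neither did any other tested spot. In CaCo-2, limma called 0 of 25624 spots, or 0%, and 637 spots, or 2.49%, had an unadjusted p under 0.05. In THP-1 it called 0 of 26175 spots, or 0%, and 623 spots, or 2.38%, had an unadjusted p under 0.05. With 0 raised to the lowest value of the array the counts were 15, or 0.0434%, and 5, or 0.0145%. Every member spot tested had an adjusted p of 1 in limma. Nor did any member spot with at least 2 readings above 0 in each group have TNF intensities clear of the controls. In CaCo-2 that held at 4.52% of spots with TNF above and 0.394% with TNF below control, and in THP-1 at 0.497% and 2.75%. Member spots with fewer readings above 0 entered neither comparison. In THP-1 these were KRTCAP3 and spots of ELF3, CTTN and AFDN, and in CaCo-2 an ELF3 spot. Among them was the brightest AFDN spot, above 0 on 4 of 5 control and 0 of 7 TNF arrays of THP-1.

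**Figure D4:**
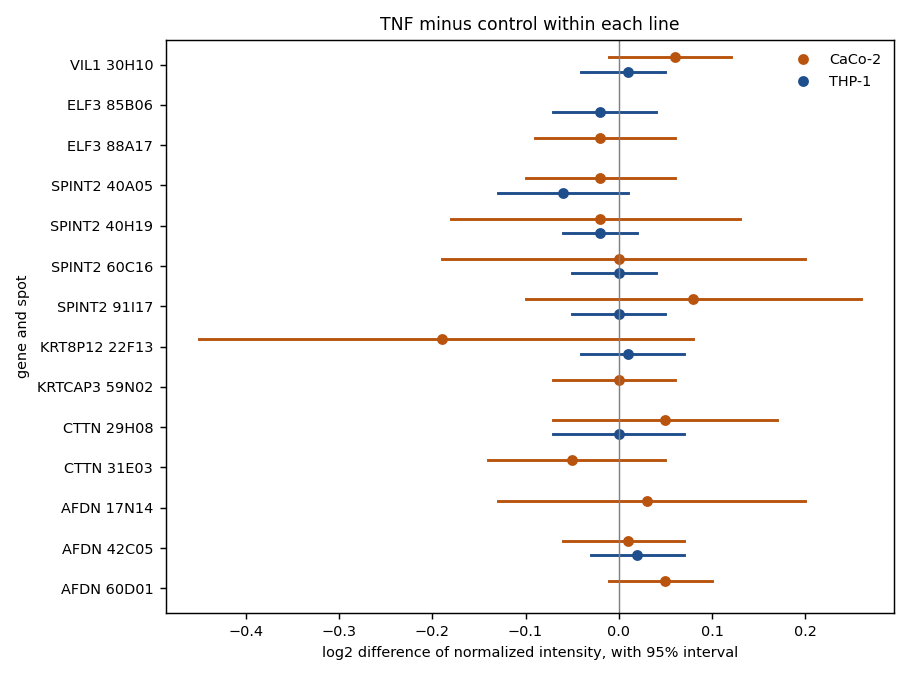
TNF minus control log2 difference of normalized intensity (x axis) for each spot (y axis), with 95% intervals, in CaCo-2 and in THP-1. All intervals include 0, and KRT8P12 in CaCo-2 has the widest, from -0.45 to 0.08. Those of AFDN are descriptions and not tests.

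The intervals describe spread among the arrays alone, over readings above 0, and do not bound an effect of TNF on cultures. In CaCo-2, VIL1 differed by 0.06 (95% interval -0.01 to 0.12), KRTCAP3 by 0.00 (-0.07 to 0.06) and CTTN 31E03 by -0.05 (-0.14 to 0.05) on the log2 scale. KRT8P12 differed by -0.19 (95% interval -0.45 to 0.08). The 2 levels of its deposited CaCo-2 intensities run across both treatments and overlap after normalization. For SPINT2, the difference was -0.02 at 40A05 and at 40H19, 0.00 at 60C16 and 0.08 at 91I17. At 91I17 the interval ran from -0.10 to 0.26. Without the 5 CaCo-2 arrays that stood apart, the difference was 0.21 at 91I17, 0.15 at 60C16, 0.09 at 40H19 and -0.01 at 40A05. In that fit VIL1 was at 0.06, KRTCAP3 at -0.01, CTTN 31E03 at 0.01 and KRT8P12 at -0.15. All 8 had an adjusted p of 0.925 or more in limma.

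In THP-1 the spots were tighter. VIL1 differed by 0.01 (95% interval -0.04 to 0.05), KRT8P12 by 0.01 (-0.04 to 0.07), ELF3 85B06 by -0.02 (-0.07 to 0.04) and SPINT2 91I17 by 0.00 (-0.05 to 0.05) after TNF. With each 0 raised to the lowest value of its array, VIL1 read -0.19 and KRT8P12 -0.31, outside these intervals and not called. The interaction, which tests whether the TNF difference itself differed between the lines and uses the same control arrays, was called at 0 of 22507 spots, or 0%, while 599 spots, or 2.66%, had an unadjusted p under 0.05. Among members other than AFDN it ranged from -0.20 at KRT8P12 to 0.08 at SPINT2 91I17, and from -0.17 to 0.21 at the same spots without the 5 arrays.

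Further genes of these pathways were read on the same TNF arrays through fixed lists, each gene by its brightest spot. The lists also hold the members, which were chosen for the line difference. Over all 26087 tested spots the median log2 difference between CaCo-2 and THP-1 was 0.031, and 1.2% were called higher in CaCo-2. Of 6 tested brush border and enterocyte genes, 2 were higher in CaCo-2: VIL1, a member, and NHERF1, a scaffold that ties membrane proteins to ezrin, at 0.24 ± 0.05 (SE; adjusted p = 0.0397 in limma), and 0 were lower. The list's median was 0.055. Summed over the 7 brush border genes with a spot, intensity ranged from 1.68 to 2.36 and from 1.72 to 2.31 over the control and the TNF arrays of CaCo-2, and from 1.78 to 2.09 and 1.56 to 2.15 over those of THP-1, and these ranges overlapped. Readings at 0 added nothing to these sums.

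Of 4 tested genes of the keratin list, 1 was called, the member KRT8P12, and the median was -0.004. KRT23 differed by -0.03 and KRT80 by 0.00. The list also counts KRTCAP2, a keratinocyte associated protein rather than a keratin, which differed by -0.01. Among 18 tested cell junction genes 2 were higher and 0 lower, with a median of 0.056. PKP2 and PKP3, plakophilins of the desmosomal plaque, were both higher in CaCo-2 by 0.16 ± 0.03 (SE), with adjusted p of 0.0284 and 0.0334 in limma. PKP2 was above 0 on 3 and PKP3 on 5 of the 7 THP-1 TNF arrays. DSP, the desmosomal plaque protein desmoplakin, named after its values were seen, could not be tested, since no THP-1 array read it above 0, against 4 of 5 control and 3 of 5 TNF arrays of CaCo-2. CLDN4, a tight junction claudin, differed by -0.14 with an adjusted p of 0.0985 in limma.

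No gene was called in either direction among 6 epithelial transcription factors, 4 serine proteases and inhibitors of epithelia, 11 cortical actin genes, 5 monocyte markers and 7 fibroblast and endothelial markers. Their medians were 0.055, -0.018, 0.043, 0.012 and 0.055. SPINT2 and CTTN enter these lists through 40A05 and 29H08, and SPINT2 spots 40H19 and 91I17 were called higher, as given above.

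Of the members, 2 spots were above 0 on all 22 arrays and could be matched to other spots. The patterns most like SPINT2 40H19 over those arrays were ESCO2, a cohesin acetyltransferase (r = 0.930), SCRN2 (r = 0.925) and EBP, a sterol isomerase (r = 0.912). For SPINT2 40A05 they were POC5 (r = 0.914), STRIP2 (r = 0.877) and CCDC93 (r = 0.871). With r = -0.58 between the 2 spots over these arrays, no neighbour at such r could be shared. These coefficients, too, run over arrays that share the line difference.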

How the data were processed

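The deposited intensities lie on a linear scale, as their range shows. The sources used here do not give how the authors analysed images, treated background or normalized. Negative codes and exact 0 were set to missing. Of 33 columns, 11 were summed, and 10 of these repeated a single column. Of the 10, 9 were used once through the single column, and 1 pair with opposite treatment labels was left out. THP-1 control 3, a summed column with no partner, was divided by 3. Quantile-normalized log2 values were tested two-sided with lmFit and eBayes, with a trend of the variance (limma 3.58.1, R 4.3.3), for spots with at least 2 values above 0 per group, and Benjamini-Hochberg adjustment covered all of them. The fit was tested on simulated data. Members and gene lists were chosen with earlier results of these data known. Named genes were the members, up to 4 genes per list with the smallest p, and the 3 most similar spots. Alternatives covered values at 0, normalization, filters, weights, the replicate block, column pairs and arrays left out, and 2 were chosen after seeing the data. A spot that names VIL1 beside another gene was left out.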

Additional observations from a re-analysis of the deposited data

Results flagged for a closer look

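Single readings of the members stood out in a pair of ways. SPINT2 spot 40A05 on CaCo-2 TNF 6 had a normalized log2 level of -1.09, while the other 4 arrays of the group lay between -1.01 and -0.98. Its intensity was 0.386 there and 0.506 to 0.551 on the others. Of 43 groups of values searched, this was the 1 outlying array, and chance gives about 2.15.

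The summed partner columns, left out of the main fits, held a value at 12 member readings where the single column of the same array was at 0. For ELF3 spot 85B06 these were 0.1222, 0.1252 and 0.0999 for CaCo-2 control 1, 2 and 4, and 0.1116 for CaCo-2 TNF 1. For ELF3 spot 88A17 the partner of CaCo-2 TNF 1 held 0.1323, and for AFDN spot 17N14 it held 0.1216. The partner of THP-1 control 1 held 0.1176 at KRTCAP3 spot 59N02, 0.1142 at CTTN spot 31E03 and 0.1923 at AFDN spot 42C05. The partner of CaCo-2 control 1 held 0.2074 at AFDN 42C05. SPINT2 spot 60C16 had 0.2773 in the partner of THP-1 control 2, and AFDN spot 60D01 had 0.3778 in that of THP-1 TNF 6. Over all spots, 43067 of 105452 readings at 0 with a partner had one above 0.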

How the results depend on the processing

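Between TNF arrays of the 2 lines, 378 spots were called, and the count was 19 without normalization, 154 with cyclic loess, 590 with dim spots left out, 207 without variance trend, 2692 with array weights, 673 with all 4 groups in 1 fit, 107 with the mean of summed and single column, 751 with the pair under 2 labels added as CaCo-2 TNF, 572 without the 5 arrays that stood apart and 49 with 0 replaced by the summed partner. Cyclic loess gave 60 higher and 94 lower, array weights 2322 and 370. Leaving out 1 array gave 85 to 1541 (85 without THP-1 TNF 1, 1541 without THP-1 TNF 8). On control arrays, 20 spots were called, with 155 at 0 raised to the lowest value, 112 for spots above 0 throughout, 0 without normalization, 12 with cyclic loess, 46 without dim spots, 396 with weights, 204 in 1 fit, 72 with the mean, 416 with all columns separate, 205 with the pair added as CaCo-2 control, 638 without the 5 arrays and 5 with the partner's value. Leaving out 1 array gave 4 to 701 (4 without THP-1 control 2, 701 without CaCo-2 control 1). TNF calls, 0 at first, were 15 in CaCo-2 and 5 in THP-1 with 0 raised, 19 and 18 with the mean, and 21 and 19 with all columns separate. The interaction gave 38 and 28 in the latter 2. The replicate block gave 705 between TNF arrays, 0 on control arrays, 1 for TNF in THP-1, 1 for the interaction and 0 for TNF in CaCo-2. Deviations of same-numbered arrays correlated between -0.3 and 0.67 in CaCo-2 and between -0.37 and 0.31 in THP-1. With 4 such pairs per line, these values cannot decide whether the numbers pair arrays. The labels do not state a pairing. Of 698 tested member values in TNF comparisons under alternatives, AFDN left out, 0 were called.

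On TNF arrays the difference between the lines stayed called in 25 of 26 alternatives for KRT8P12, 26 of 27 for SPINT2 40H19, 22 of 26 for 91I17, 9 of 26 for VIL1 and, newly, 9 of 26 for 60C16 and 1 of 25 for CTTN 29H08, with the same sign throughout. Among tested values, signs turned in TNF comparisons, all uncalled. Under 0 raised, KRT8P12 read -0.31 and VIL1 -0.19 for TNF in THP-1, and KRT8P12 0.12 for the interaction. Without normalization, TNF in CaCo-2 read 0.03 at SPINT2 40A05, 0.02 at 40H19 and 0.06 at CTTN 31E03, and VIL1 -0.01 in THP-1. CTTN 31E03 in CaCo-2 read 0.02 with medians subtracted, 0.01 without the 5 arrays and 0.04 with the partner's value. KRT8P12 in THP-1 read -0.01 with weights. SPINT2 40A05 in CaCo-2 read 0.01 under the block, and 40H19 0.01 with all columns separate and 0.09 without the 5 arrays. ELF3 with the partner's value read 0.01 at 88A17 in CaCo-2 and 0.04 at 85B06 in THP-1. The interaction read -0.02 at VIL1 with the mean, and -0.04 at VIL1 and -0.01 at SPINT2 91I17 with all columns separate. Leaving out 1 array gave -0.07 to 0.02 at SPINT2 40H19 and -0.05 to 0.01 at ELF3 88A17 for TNF in CaCo-2. Of the values given without a test, VIL1 read -0.02, AFDN 42C05 -0.12 and AFDN 60D01 -0.06 on control arrays without normalization, and AFDN 42C05 -0.01 with the partner's value. AFDN 17N14 for TNF in CaCo-2 turned to -0.11 with 0 raised, -0.53 with the mean and -0.15 with all columns separate, and AFDN 42C05 turned to between -0.03 and -0.01 in CaCo-2, -0.02 and -0.01 in THP-1 and 0.01 and 0.15 for the interaction. The cause of these changes was not tested.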
